A study of Eohaustorius estuarius with 16 samples.

Results

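The 146 contigs described here were chosen for a common pattern in whole-body samples of the estuarine amphipod Eohaustorius estuarius. Their signal was far lower in cyfluthrin replicate 2, control replicate 1 and control replicate 8 than the median of the same group's other samples. For 6 of them, some of those other samples were low too. A contig is an assembled transcript sequence, and each was measured by 1 probe design on a one-colour Agilent array. The members were chosen from the measured values. They are the contigs whose value in the authors' log2 table lay at least 3 units (8-fold) below the median of the same group's other arrays in each of these 3 samples. Cyfluthrin replicates 5 and 6, which are near-duplicates, were averaged first. The rule took 146 of the 6852 contigs that were well above background on at least 8 of 16 arrays, or 2.13% of them, out of 8507 contigs on the array. Of the 1655 dimmer contigs, 0 met the same depth. These were well above background on fewer than 8 arrays, which leaves little room for such a fall.

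The cyfluthrin group was 8 arrays of animals held for 10 days in sediment spiked with this pyrethroid insecticide at a nominal 1.6 µg/kg, and the control group was 8 arrays of animals held for the same time in solvent-spiked sediment. Pyrethroids keep sodium channels of nerve membranes open for longer. Laboratory F, 1 of 6 laboratories in a comparison of array data, extracted the RNA and ran the arrays. Whether the samples are separate animals or come from separate containers is not given in the labels. A p-value here therefore refers to the spread among these arrays, which may be technical in part.

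A whole-body extract mixes the RNA of muscle, cuticle, gut, nerve and reproductive tissue, and a contig made mainly in one tissue follows both the share of that tissue and its activity. In such bulk samples, fewer cells of a type and less RNA per cell cannot be told apart. The files used here pair no contig with a gene name, so no role is given to any member, and tissue markers could not be checked.

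Before the members are described, the arrays themselves can be set side by side. The 75th percentile of the unscaled log2 signal was 7.74 in cyfluthrin replicate 2, 6.89 in control replicate 1 and 6.92 in control replicate 8, within the range of 6.15 to 8.14 over all arrays. The spike-in signal (E1A probes, for transcripts added in the labelling protocol) was 9.03, 8.54 and 8.83 log2 units in these samples, and between 8.52 and 9.50 in the other 13. The share of all contigs well above background was 80.8% in cyfluthrin replicate 2, 75.2% in control replicate 1 and 67.6% in control replicate 8, and it was as low as 67.6% in control replicate 7. Cyfluthrin replicate 2 and control replicate 1 lay on slide 1 and control replicate 8 on slide 2.

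The common pattern is plainest in the level of the whole set, given as log2 of the processed signal over the array's 75th percentile. The median member stood at -5.75 in cyfluthrin replicate 2, at -5.94 in control replicate 1 and at -3.28 in control replicate 8. The other cyfluthrin samples had medians from -0.61 in replicate 1 to 1.08 in replicate 4, and the other controls from -0.96 in replicate 7 to 0.79 in replicate 2. The median of all 6852 contigs differed little between arrays, between -1.50 and -1.21. As a share of the summed signal of all contigs, the members gave 0.0439% in cyfluthrin replicate 2, 0.0329% in control replicate 1 and 0.294% in control replicate 8. The share was 2.34% to 5.90% on the other cyfluthrin arrays and 1.41% to 4.71% on the other control arrays. These differences restate what the rule selected and carry no test.

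**Figure D1:**
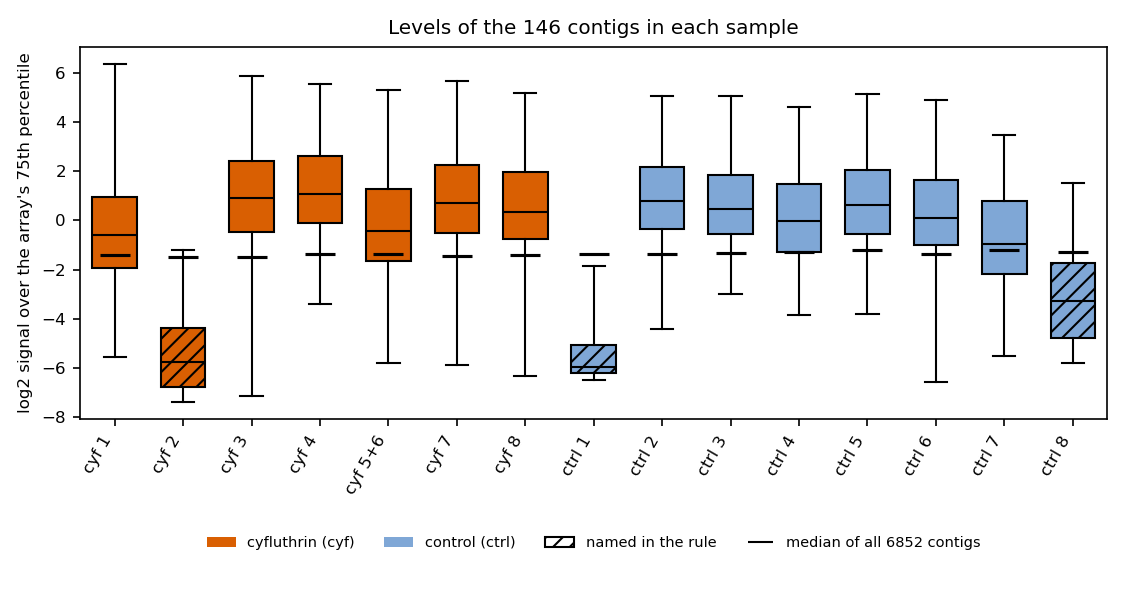
Levels of the 146 contigs in each sample, with cyfluthrin samples at the left and controls at the right. Boxes span the quartiles with the median, whiskers run from the lowest to the highest contig, hatching marks the 3 samples named in the rule, and short black bars give the median of all 6852 contigs. The 3 hatched boxes have medians of -5.75, -5.94 and -3.28, below the medians of -0.96 to 1.08 of every other sample.

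The members ranged from dim to bright where they were expressed. Over the 12 samples not named in the rule, the mean signal of 121 members lay above the median contig, and 2 were among the 100 brightest, although signal also depends on the probe. On those samples' 13 arrays, 126 members were well above background throughout. In cyfluthrin replicate 2, 58 of the 146 were well above background, in control replicate 1 only 17, and in control replicate 8, 85. For 51 members none of these 3 arrays was well above background, so their depth there is limited by background and only roughly known. The level in cyfluthrin replicate 2 was below that of every other cyfluthrin sample for 142 members. Those in control replicates 1 and 8 were each below every control outside the rule for 143.

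Of the 5 members of largest signal, 4 were well above background on every array. The level of contig_1789 was -1.22 in cyfluthrin replicate 2, against 3.22 to 5.84 in the other cyfluthrin samples with a median of 5.34. In controls the level of contig_1789 was -2.91 in replicate 1 and 1.51 in replicate 8, against 3.45 to 5.05 with a median of 4.85 in the others. All other samples lay above these 3 values. The 3 values correspond to 94.3-fold, 218-fold and 10.1-fold lower signal than the group median, and contig_1789 was well above background on all 16 arrays.

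contig_5650 behaved in the same way, with -2.04 in cyfluthrin replicate 2 against 3.17 to 5.30 in the other cyfluthrin samples (median 4.74). Its control values were -3.40 in replicate 1 and 1.16 in replicate 8, against 3.42 to 4.91 (median 4.48). contig_3402 was -2.87 in cyfluthrin replicate 2 against 3.27 to 5.21 in the others (median 4.39). In control replicate 1 contig_3402 was not well above background. With its value set to that array's lowest signal well above background, contig_3402 stood 669-fold under its group median. In control replicate 8 it stood 10.7-fold under it. The next brightest, contig_1460 and contig_1461, followed each other closely, with a median gap of 0.0466 log2 units between them over all samples. Both were 71.2-fold and 72.4-fold lower in cyfluthrin replicate 2, 73.7-fold and 78.7-fold lower in control replicate 1, and 8.42-fold and 9.07-fold lower in control replicate 8. In all, 21 members carried a number next to that of another member, in 11 pairs whose median gap ran up to 2.99 log2 units, and whether such contigs belong to 1 transcript was not tested.

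The members' differences from the group lay closer together in control replicate 8 than in the other 2 samples. There the median difference from the group was -3.45 log2 units, or 10.9-fold, with quartiles of -3.69 and -3.24. Among the 85 members well above background on that array the SD between contigs was 0.24 log2 units around a median of -3.34. The 20 members of largest signal had a median of -3.32 and the 20 of smallest signal a median of -3.49. These values come from a selection that required at least 3 units in the authors' table. Those of the dim members are limited by background where they were not well above it.

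In the other 2 samples the members' differences spread more widely, and most of them were read from values not well above background. The median difference was -6.21 log2 units in cyfluthrin replicate 2, with -6.79 for the 20 members of largest signal and -4.61 for the 20 of smallest. In control replicate 1 the median was -6.00, with -8.20 and -3.50 for the same subsets. Each dim value was then set no lower than the array's lowest signal well above background. The median member was then 62.0-fold lower in cyfluthrin replicate 2 and 38.4-fold lower in control replicate 1. Some contigs not well above background lay above that signal, so such folds are approximate and not strict minima. Only 58 members in cyfluthrin replicate 2 and 17 in control replicate 1 were well above background. The smaller differences of the dim members are therefore limited by background, and no relation between depth and signal is read from them.

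**Figure D2:**
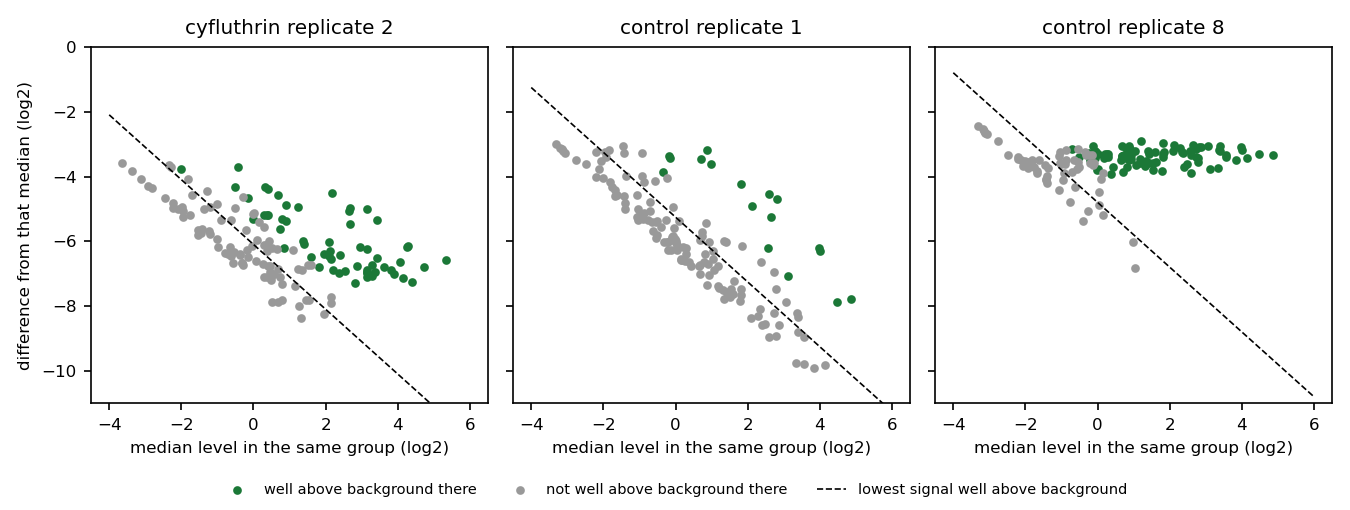
Difference of each of the 146 contigs from the median of its group's other samples (vertical axis, log2) against that median level (horizontal axis, log2) in cyfluthrin replicate 2, control replicate 1 and control replicate 8. Green points were well above background on that array and grey points were not, and the dashed line marks the lowest signal well above background. In control replicate 8 the green points lie in a flat band near -3.34. In control replicate 1 most points are grey, and most lie below the dashed line.

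Some of the deepest members by the smallest of their 3 differences were not the brightest ones. contig_5076 led this order, although it was not well above background on any of the 3 arrays, with differences in the authors' table of -7.42 in cyfluthrin replicate 2, -7.03 in control replicate 1 and -4.99 in control replicate 8. Its level was -7.36 in cyfluthrin replicate 2 against -1.07 to 0.75 in the other cyfluthrin samples (median 0.50). It was -6.44 and -5.05 in control replicates 1 and 8 against -1.34 to 0.91 in the other controls (median 0.14). With its values set to each array's lowest signal well above background, contig_5076 was 96.8-fold lower in cyfluthrin replicate 2. The same measure gave 42.0-fold in control replicate 1 and 30.6-fold in control replicate 8. contig_462, contig_4122, contig_817, contig_1424, contig_4432, contig_5387, contig_8150, contig_8076 and contig_6017 came next, with smallest differences from -4.85 to -4.01. Of these 10, 0 were well above background in control replicate 1 or in control replicate 8, and 3 were in cyfluthrin replicate 2, so their order is partly one of values near background.

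At the edge of the rule, contig_3906, contig_8089 and contig_5790 were just inside with smallest differences of -3.04, -3.03 and -3.01. contig_7947, contig_4032 and contig_6902 were just outside with -2.99, -2.99 and -2.98. No gap set the members off from the next contigs: 181 contigs were at least 2.5 below in all 3 samples, 223 at least 2 below and 11 at least 4 below.

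The lists of low contigs in the 3 samples overlapped. At a depth of 3 units, 214 contigs were low in cyfluthrin replicate 2, 235 in control replicate 1 and 159 in control replicate 8. The 146 shared contigs made up 68.2%, 62.1% and 91.8% of these lists. In the opposite direction, 0 contigs were at least 3 units above the group median in all 3 samples, 16 were at least 2 above and 64 at least 1 above, beside 320 at least 1 below.

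Repeated spots bore on the depth within an array. The members held 341 spots, spread over 158 of the 192 rows and all 82 columns of the array, and between 22.0% and 26.7% of them fell in each corner block of the array, against 24.9% to 25.2% of the spots of all tested contigs. Taken one by one, all 341 spots were at least 2 units below the group median in cyfluthrin replicate 2 and in control replicate 8. In control replicate 1, 340 were. The exception was 1 of the 11 spots of contig_1274, which carried the software's outlier flag and had been left out of the averages. Between the spots of a member with 2 spots, the median gap was 0.39 log2 units in cyfluthrin replicate 2, 0.29 in control replicate 1 and 0.16 in control replicate 8, and 0.055 to 0.11 on the other arrays.

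Contigs spotted many times were more frequent among the members than among all tested contigs. Of the 39 tested contigs with 10 or 11 spots, 8 were members (20.5%), against 2.13% of all tested contigs. Contigs with 1 spot made up 15.8% of the members and 26.1% of tested contigs. Each of the 8 members had 11 spots. The spot means and SDs given for them keep spots with the outlier flag. For contig_884 the mean over spots was -6.26 ± 0.67 (SD over 11 spots) in cyfluthrin replicate 2, -6.15 ± 0.32 in control replicate 1 and -2.35 ± 0.24 in control replicate 8. Its lowest single spot on any other array was -0.28. contig_4433, the shallowest of the 8 in control replicate 1, had -3.70 ± 0.14, -2.29 ± 0.18 and -2.16 ± 0.14 in the same samples, and no spot below -0.80 elsewhere. The other 6 were contig_2124, contig_1274, contig_883, contig_2968, contig_6324 and contig_2337, with means from -6.61 to -4.52 in cyfluthrin replicate 2, from -6.10 to -4.57 in control replicate 1 and from -4.21 to -1.90 in control replicate 8. For contig_884 and contig_4433, the spots of the 3 arrays did not overlap those of any other array. These spots are technical repeats on 1 array and say nothing of the spread between animals.

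The 12 samples outside the rule show how the members vary among themselves where nothing selected them to be low. With each contig centred on its group's mean, the median Pearson correlation between 2 members over these 12 samples was 0.84, against 0.012 between 2 of all tested contigs. The correlation to the members' median profile was at least 0.8 in 129 members (88.4%) and in 5.27% of tested contigs. That profile is made from the members themselves, which are also among the tested contigs, so a high share is partly built in. This is a description over 12 samples, measured on 13 arrays of 2 slides and scaled in the same way. The profile was lowest in cyfluthrin replicate 1, in the averaged cyfluthrin replicates 5 and 6 and in control replicate 7, with median deviations of -1.10, -0.77 and -1.03 log2 units from the group mean. In these samples only 7, 7 and 6 of the 146 members lay above their group's mean. It was highest in cyfluthrin replicates 4 and 3, at 0.70 and 0.65, and in control replicate 2 at 0.60. These highest samples lay on slide 2. Cyfluthrin replicate 1 and control replicate 7 lay on slide 1, and the averaged pair had an array on each slide. Cyfluthrin replicate 7 and control replicate 5, at 0.47 and 0.28, lay on slide 1 too. Whether the slide had a part in the profile was not tested.

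The members also varied more than most contigs. The SD within a group had a median of 0.75 log2 units over the members and of 0.39 over all tested contigs. In cyfluthrin replicate 1, 129 members lay at least 1 unit below the median of the other cyfluthrin samples outside the rule, or 88.4%, against 6.38% of tested contigs. In the averaged cyfluthrin replicates 5 and 6, 106 members did (72.6%), against 4.52% of tested contigs. In control replicate 7 the share was 69.9%, against 14.8% of tested contigs. Control replicate 7 also had the lowest 75th percentile of all arrays, 6.15 log2 units. Its part in the members' level there was not tested.

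**Figure D3:**
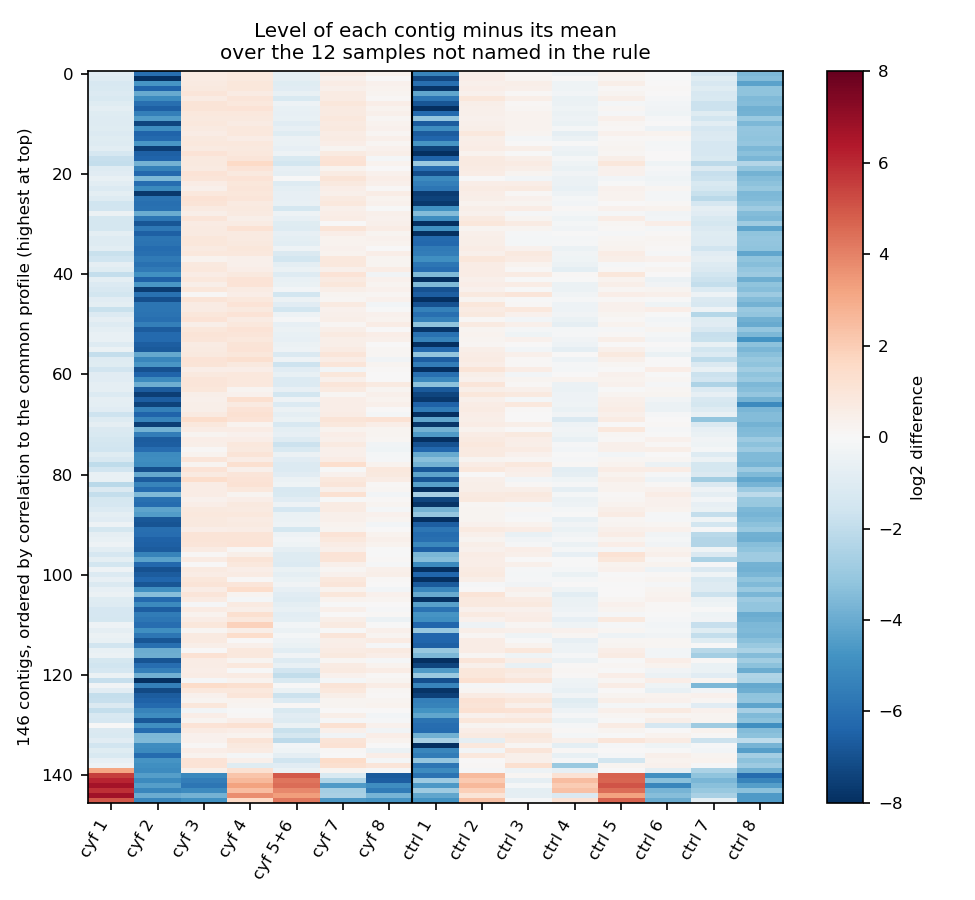
Level of each of the 146 contigs (rows) in each sample (columns, cyfluthrin left of the line and controls right of it), as the log2 difference from the contig's mean over the 12 samples not named in the rule. Rows are ordered by their correlation to the common profile, highest at the top. Most rows share the same pale bands, and the 6 rows at the bottom follow another pattern.

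Outside the set, 232 further contigs followed the members' profile with a correlation of at least 0.8 over the 12 samples, of 6706 that were not members. Of these, 91 (39.2%) were at least 1 unit below the group median in all of cyfluthrin replicate 2, control replicate 1 and control replicate 8, against 4.67% of tested contigs. The 5 most alike, by correlation of values centred on each contig's median, were contig_6318, contig_947, contig_3683, contig_7407 and contig_1514, with coefficients from 0.97 to 0.95. In the authors' table contig_6318 differed from its group medians by -4.22 in cyfluthrin replicate 2, -4.43 in control replicate 1 and -2.87 in control replicate 8. contig_947, with nearly the same likeness, differed by -1.99, -1.37 and -1.42. Likeness outside the 3 samples thus came with depths that varied from contig to contig.

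Of the 146 members, 9 correlated with the common profile at less than 0.5, and 6 of these had a second pattern of their own. These are contig_1676, contig_471, contig_1408, contig_1442, contig_2344 and contig_4122, picked out after their values were seen. Their SD within a group ran from 3.64 to 4.77 log2 units, and the lowest correlation between any 2 of them over the 12 samples was 0.94. Their median level was 5.86 in cyfluthrin replicate 1, 3.69 in replicates 5 and 6 and 2.62 in replicate 4. It was -5.09, -3.04 and -5.91 in cyfluthrin replicates 3, 7 and 8, beside -4.98 in cyfluthrin replicate 2. Among controls it was highest in replicate 5, at 4.26, and -4.42 in replicate 6, beside -5.26 and -5.37 in replicates 1 and 8. These contigs met the rule because the middle of their group lay far above the 3 samples, although other samples were low too.

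**Figure D4:**
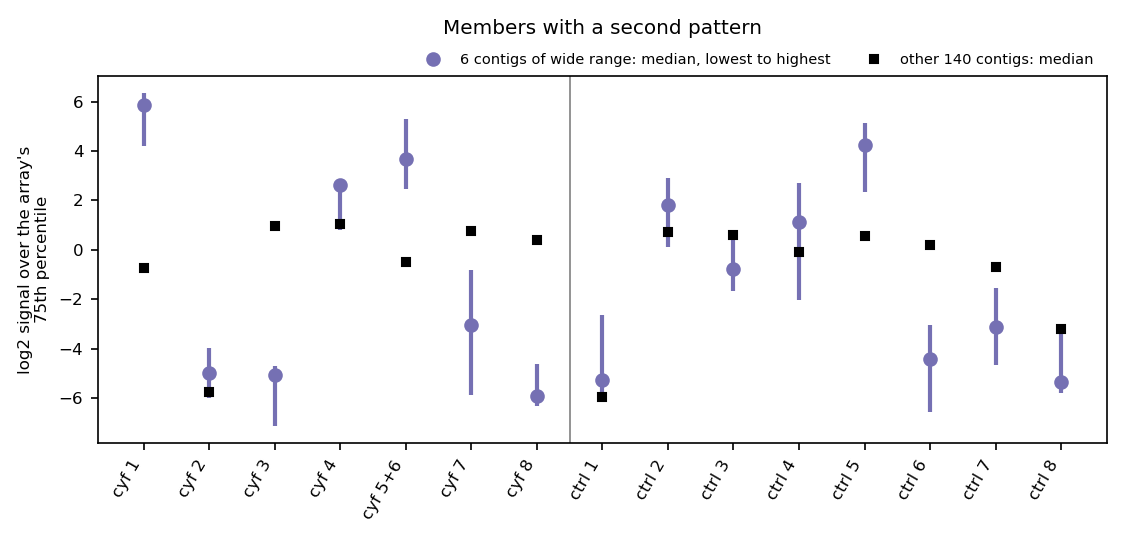
Levels (log2 signal over the array's 75th percentile) of the 6 contigs of wide range in each sample, with the median as a circle and a line from the lowest to the highest contig, beside the median of the other 140 members as squares. Cyfluthrin samples stand left of the line and controls right of it. The circles run from 5.86 in cyfluthrin replicate 1 to -5.91 in cyfluthrin replicate 8, while the squares of those samples are -0.72 and 0.38.

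A single contig, contig_4122, shows the second pattern sample by sample. Its cyfluthrin levels were 5.94 in replicate 1, 5.27 in replicates 5 and 6, 2.62 in replicate 4, -0.82 in replicate 7, -4.77 in replicate 3 and -6.32 in replicate 8, beside -3.99 in replicate 2. Its control levels were 5.14 in replicate 5, 2.89 in replicate 2, 1.54 in replicate 4, 0.56 in replicate 3, -2.83 in replicate 7 and -4.53 in replicate 6, beside -5.48 and -5.77 in replicates 1 and 8. Both groups span the whole range, and they overlap fully. A further 14 tested contigs, with 0 members among them, followed the profile of these 6 with a correlation of at least 0.9.

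The other 3 members off the profile were contig_238, contig_2337 and contig_4444. contig_238 was highest in cyfluthrin replicate 1, at 6.28, where most members were low, and ran from 2.61 to 4.35 in the other cyfluthrin samples outside the rule. contig_2337 was low in control replicate 4 as well, at -3.25, next to -3.17 in control replicate 8.

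The study's own question, what cyfluthrin changes, was put to the members in the 6 cyfluthrin and 6 control samples that the rule does not name. The reason is that the rule itself lowers 2 controls and 1 cyfluthrin sample. The samples not named entered the rule as well, through the median of each group. Few members passed the test. In limma, fitted over all 6852 contigs with Benjamini-Hochberg adjustment, 1 member was higher with cyfluthrin (0.685% of the members, against 6.65% of tested contigs) and 1 was lower (0.685%, against 19.0% of tested contigs). At an unadjusted p below 0.05 there were 5 higher and 2 lower, or 4.79% of the members, against 40.8% of tested contigs. The median standard error of a change was 0.39 log2 units over the members and 0.22 over all tested contigs, so a change of a given size was harder to call among the members. A miss of the threshold does not show that the groups were alike.

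The member that rose was contig_1377. Its levels were -1.01, 0.52, 0.64, -0.43, 0.64 and 0.094 in cyfluthrin replicates 1, 3, 4, the averaged 5 and 6, 7 and 8, against -0.39, -0.61, -0.91, -0.66, -0.77 and -2.17 in control replicates 2 to 7. The groups overlap through cyfluthrin replicates 1 and 5 and 6. The difference was 0.996 ± 0.345 (SE) on the log2 scale (limma adjusted p = 0.0489), with 5 of 6 cyfluthrin samples above the control median. Over 25 alternatives its adjusted p ran from 0.0190 to 0.236, and contig_1377 missed the threshold in 17 of them.

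The member that fell was contig_7680. Its levels were -3.50, -1.85, -1.66, -2.86, -1.60 and -1.57 in the same cyfluthrin samples, against -0.42, -0.48, -2.01, -1.21, -0.89 and -1.26 in the controls. Control replicate 4 lay among the cyfluthrin values. The change was -1.13 ± 0.37 (SE) in log2 units (limma adjusted p = 0.0394), with 0 of 6 cyfluthrin samples above the control median. Its adjusted p ran from 0.00844 to 0.605 over 25 alternatives, and contig_7680 missed the threshold in 15 of them. Leaving out any of control replicates 3, 5, 6 or 7 or cyfluthrin replicate 3 ended both calls. Leaving out control replicate 4 or cyfluthrin replicate 4, 7 or 8 ended only that of contig_1377, and leaving out control replicate 2 or cyfluthrin replicate 1 or the averaged pair only that of contig_7680.

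Over all members the median change with cyfluthrin was 0.15 log2 units, with quartiles of -0.20 and 0.36, and 92 members were higher and 54 lower. Over all tested contigs the median was -0.18, with 61.4% lower. The zero of this scale depends on how arrays are scaled. With median scaling, the members' median was 0.34 and that of all contigs 0.014, and 1 member was called higher (9.85% of tested contigs) and 0 lower (8.09%). Quantile normalization gave medians of 0.17 for the members and -0.029 for all contigs, with 0 members called (7.05% of tested contigs higher, 8.52% lower). The authors' own values gave 0 called members as well (7.08% higher, 8.52% lower). With scaling to the spike-in probes the medians were 0.63 for the members and 0.31 for all contigs, and 2 members were called higher (14.4% of tested contigs) and 0 lower (1.61%). The 456 contigs called higher and 1305 called lower thus became 675 higher and 554 lower after median scaling. Under quantile normalization they were 483 higher and 584 lower, and under spike-in scaling 987 higher and 110 lower. With normexp background correction 2 members were called higher (7.18% of tested contigs) and 5 lower (28.9%). Relative to the median contig, the members' median was higher with cyfluthrin under each of these scalings. Percentile, median and spike-in scaling each shift all contigs of an array alike. The gap between the members and the median contig therefore cannot differ between them. Quantile normalization can change this gap and gave the same direction. The authors' values are nearly the same data as the quantile-normalized ones, so they are not a separate check. With single samples left out, the members' median ran from -0.057 without control replicate 7 to 0.38 without cyfluthrin replicate 1. It was 0.0020, 0.042, 0.082 and 0.33 without cyfluthrin replicate 4, 3, 7 or the averaged pair, and 0.27, 0.22, 0.22 and 0.097 without control replicate 2, 3, 5 or 4. On slide 1 alone the members' median was 0.031 and on slide 2 alone -0.038, against -0.24 and -0.12 for all contigs. Slide 1 alone gave 0 called members (0.306% of tested contigs higher, 0.102% lower), and slide 2 alone gave 0 higher (2.52%) and 1 lower (4.61%).

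In 0 members did the values of the groups fail to overlap, against 3.27% of tested contigs with all cyfluthrin values higher and 9.94% with all lower. With all 8 control and 7 cyfluthrin samples in the fit, limma called 0 members, against 7.44% of tested contigs higher and 22.5% lower, and 0 members passed an unadjusted p of 0.05. In that fit the median change of the members was 0.45 with a median standard error of 1.13, and the direction is partly set by the rule.

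**Figure D5:**
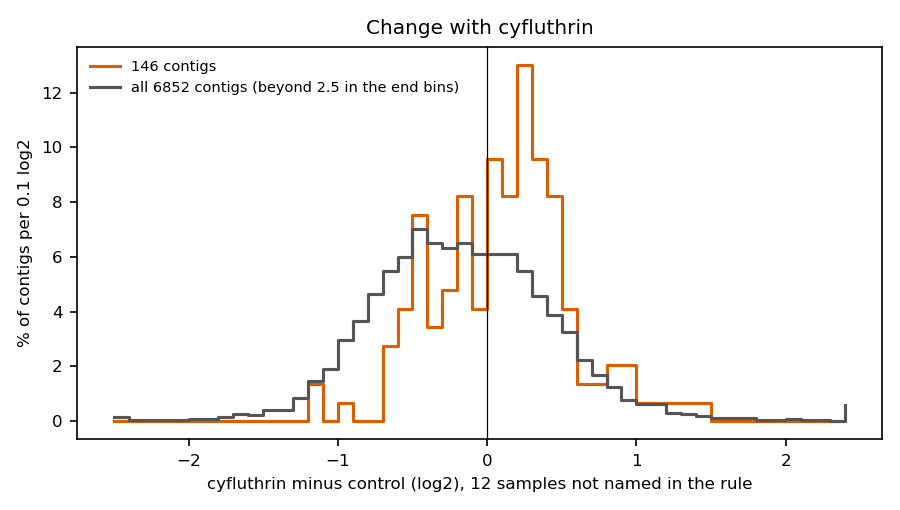
Distribution of the change with cyfluthrin (horizontal axis, cyfluthrin minus control in log2 units over the 12 samples not named in the rule) for the 146 contigs and for all 6852 tested contigs, as the percentage of contigs per bin. The members centre at 0.15 and all contigs at -0.18.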

How the data were processed

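Per the labels' protocols, total RNA was labelled with Cy3 as cRNA by Agilent's one-colour Quick Amp method. The intensity values per spot, as deposited, came from Agilent Feature Extraction 11.5.1.1 per the file headers (9.1 in the submitters' processing notes) and are background-subtracted within an array, not scaled between arrays. The authors' deposited log2 table correlated at 1.00 per array with quantile-normalized, probe-centred values, from which its scale and centring are inferred. Its column medians ran from -0.11 to 0.12.

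The 536 control spots and outlier spots were left out, log2 processed signals were reduced by each array's 75th percentile, and a contig's spots were averaged. The typical squared difference between cyfluthrin replicates 5 and 6 was 0.532 times that given by the software's error estimate (2.02 for the next closest pair), and they were counted as 1 sample. No saturated spot belonged to a member. Groups were compared with limma 3.58.1 in R 4.3.3 at an adjusted p below 0.05, and steps were tested on simulated data. The number of arrays limits the precision.

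Members, lists and the rule for named contigs were chosen with earlier results of these data known. Named are the 10 deepest members, those nearest the threshold, up to 5 largest changes each way among members past the adjusted threshold (1 each way), the 5 brightest, the 5 most alike non-members and members with at least 10 spots. Alternatives covered scaling, background, filter, model, blocks and each sample left out. Gene names and sequences were not used here.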

Additional observations from a re-analysis of the deposited data

Results flagged for a closer look

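Of 68 sets of values screened for a sample far from the rest of its group, 10 were marked, where chance marks about 1 in 20 independent sets. Most of these sets are levels of members over the same arrays. Members vary together, so the marks are not independent and the 2 rates cannot be compared. The spike-in signal of the averaged cyfluthrin replicates 5 and 6 was 9.48 log2 units, against 8.999 to 9.08 in the other cyfluthrin samples. In control replicate 7, 129 members were well above background, against 145 or 146 in the other controls outside the rule. Control replicate 7 was also apart in the level of 6 named contigs: -2.55 for contig_462 (others -1.05 to -0.27), -2.57 for contig_1424 (others -1.66 to -1.16), -2.17 for contig_1377 (others -0.91 to -0.39), 3.45 for contig_1789 (others 4.60 to 5.05), 3.01 for contig_3402 (others 4.07 to 4.40) and -0.95 for contig_6324 (others 0.76 to 0.91). Control replicate 3 was high for contig_5387, at -0.10 (others -1.30 to -0.99). Control replicate 4 was low for contig_2337, at -3.25 (others -0.35 to 0.97).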

How the results depend on the processing

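The number of members stayed between 124 and 181 under every alternative but a depth of 4 units, which left 11. It was 132 to 154 when each array outside the 3 was left out in turn, an alternative chosen after seeing the data. Normexp background correction has an offset of 50, which compresses dim values. With it the members' median difference was -2.53 in cyfluthrin replicate 2, -1.73 in control replicate 1 and -1.58 in control replicate 8. These medians fall short of the rule's 3 units. Members were not counted again with normexp, median scaling or spike-in scaling. The 1761 contigs called became 1097 with spike-in scaling, 1069 with the authors' table and 1067 with quantile normalization, and 1113 to 1736 with single samples left out, lowest without cyfluthrin replicate 3. Called members numbered 7 (2 higher, 5 lower) of 2474 called contigs with normexp. With the averaged pair as 2 samples there were 3 of 2033. With the slide as a block there were 3 of 1853 or 2 of 1393, by the array standing for the pair. Spike-in scaling gave 2 called members, median scaling 1 of 1229 and no filter 1 of 2084. There were 0 with quantile normalization or the authors' table. There were also 0 with all samples (2052 contigs called) or the filter on all arrays (1578), which kept 13 members. With single samples left out there were 0 to 2. With the replicate number as a block, 58 or 55 contigs and 0 members were called and the members' median change was 0.55 or 0.63, by the array standing for the averaged pair. Same-numbered samples deviated together with correlations of -0.26 to 0.37, and 1 of 5 cyfluthrin arrays correlated best with its own number. Both arrays of the averaged pair are among these 5. So few correlations cannot decide whether same-numbered samples belong together, and the labels do not say. The fit with the replicate number as a block is therefore not set aside. Causes were not tested.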
